A study of Mus musculus with 31 samples.

Results

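Bone and osteoblast transcripts were followed in masseter muscle (MM), a tissue that makes no bone itself and is anchored on the mandible and the zygomatic bone. The 7 genes are Sp7, Alpl, Phex, Ibsp, Dmp1, Mepe and Acp5, chosen by name among the 22609 gene symbols of the count tables, and all 7 had a row in each of the 31 libraries. Bulk RNA-seq was performed on left MM of male C57BL/6J mice injected into this muscle with complete Freund's adjuvant (CFA), which sets off an immune inflammation, with collagenase type 2 (Col), which digests collagen of the extracellular matrix, or with vehicle. The dissected tissue held the deep, middle and superficial parts of MM, and the study left the tendons to bone out as far as possible. The question addressed here was whether these genes followed the injected agent, or differed as much between mice that had received the same injection.

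The 9 groups had 1 library per mouse. In the CFA experiment there were 3 vehicle mice, 3 mice at CFA 1d and 3 mice at CFA 5d. In the Col experiment there were 3 vehicle mice, 4 mice in each of the 0.2U groups that the labels name 1C and RPC, and 4, 3 and 4 mice of the 10U dose at 2d, 6d and 12d. The labels' 2d and 12d are 1d and 14d in the study's text, and the names of the labels were kept. The labels do not give the day of either 0.2U group, nor the day on which vehicle mice were collected. No label says how mice were caged or batched, so p-values measure the spread between mice as deposited.

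Bone matrix is laid down by osteoblasts and mineralized around them, and cells buried in it become osteocytes. Sp7 (osterix) is a transcription factor required for osteoblast formation, and Alpl encodes tissue-nonspecific alkaline phosphatase, which frees phosphate for mineral and is also made by other tissues. Phex is an endopeptidase of osteoblasts and osteocytes whose loss causes phosphate wasting. Ibsp (bone sialoprotein), Dmp1 and Mepe are secreted acidic phosphoproteins of the SIBLING family, of which Dmp1 and Mepe are osteocyte products. Acp5 encodes tartrate-resistant acid phosphatase, the classical enzyme of bone-resorbing osteoclasts, which macrophages can also make. In bulk tissue, fewer cells of a type and less RNA per cell cannot be told apart.

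The 3 SIBLING genes lie next to each other on the plus strand of mouse chromosome 5 in build mm9 (NCBIM37), where GENCODE vM1 places Dmp1 at chr5:104631632-104643121, Ibsp at chr5:104728190-104740488 and Mepe at chr5:104754348-104767630. Spp1 (osteopontin), which is no member of the set, follows at chr5:104864137-104870069, so that the cluster from Dmp1 to Spp1 spans 238438 bp. The remaining genes lie on other chromosomes, all on the minus strand, with Sp7 at chr15:102187040-102197285, Alpl at chr4:137297648-137352299, Phex at chrX:153596618-153853244 and Acp5 at chr9:21931175-21940190. Phex shares its strand and span with the annotated genes Gm15172 and SNORA17, so reads could be divided among them. All 7 are protein-coding.

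Varying together across mice was not particular to the 3 neighbours. Spearman's rho was 0.630 to 0.883 among them and 0.939 for Ibsp and Sp7, which lie on different chromosomes. The stretches of 250 bases before the start site are shown for the 3 neighbours. They are RefSeq sequences of the GRCm38.p6 table that matched build NCBIM37 exactly and once, at chr5:104728056-104728305 for Ibsp, chr5:104631386-104631635 for Dmp1 and chr5:104754098-104754347 for Mepe, plus strand. Capitals mark the letters of 5 searched motifs on either strand. These were the Runx core (TGTGGT or ACCACA), a homeodomain core (TAATTA), a PU.1 core (GAGGAA or TTCCTC), an E-box (CACGTG) and the CCAAT box (CCAAT or ATTGG), the last one added after the sequences had been seen.
Ibsp: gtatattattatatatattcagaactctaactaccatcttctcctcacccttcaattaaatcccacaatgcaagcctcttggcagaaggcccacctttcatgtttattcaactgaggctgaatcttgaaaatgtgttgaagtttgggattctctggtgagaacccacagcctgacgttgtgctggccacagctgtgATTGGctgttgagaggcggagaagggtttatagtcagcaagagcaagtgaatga
Dmp1: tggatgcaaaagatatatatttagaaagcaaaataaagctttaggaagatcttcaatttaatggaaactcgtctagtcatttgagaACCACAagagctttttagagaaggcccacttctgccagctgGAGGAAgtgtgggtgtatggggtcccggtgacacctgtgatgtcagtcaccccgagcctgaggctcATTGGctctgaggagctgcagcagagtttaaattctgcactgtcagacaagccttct
Mepe: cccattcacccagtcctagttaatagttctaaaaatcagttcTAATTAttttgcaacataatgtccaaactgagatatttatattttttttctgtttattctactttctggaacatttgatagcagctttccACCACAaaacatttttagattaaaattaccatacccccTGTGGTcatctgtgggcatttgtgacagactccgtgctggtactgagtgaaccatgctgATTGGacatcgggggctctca

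The reversed CCAAT letters ATTGG begin at -54 in Ibsp, -57 in Dmp1 and -21 in Mepe, counted back from the start site, and 34.5% of 27025 promoters of this length hold the CCAAT box letters on some strand. The Runx letters occur at -164 in Dmp1 and at -118 and -80 in Mepe, against 14.2% of all promoters with at least 1 match, and are not in the window of Ibsp. Mepe also holds TAATTA at -208 (4.90% of promoters) and Dmp1 holds GAGGAA at -123 (23.1% of promoters). These motifs do not overlap each other, and the matches describe letters only. RefSeq gives Dmp1 another start site upstream, whose window holds CACGTG at -249 and -44 (6.05% of promoters) and ATTGG at -101. Among the windows of Phex, Alpl (2 windows) and Acp5 (3 windows), ATTGG or its complement was found in 2 windows of Acp5 and no other motif was found. Sp7 had no entry in the table.

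A library held 14843778 to 29076671 reads assigned to a gene (median 20834472), and 10 reads corresponded to 0.344 to 0.674 CPM, the reads of a gene scaled to the depth of its library. CPM values given here were scaled by TMM over all 31 libraries. Acta1, which marks skeletal muscle fibers, was at 8876 to 57158 CPM in all libraries. Genes of salivary gland, which lies beside MM, took up a summed 135794 to 171026 CPM at CFA 5d and 11.1 to 33.7 CPM at 10U 6d, and their part in the results was not tested. Hba-a1 was listed at 0 in all libraries.

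All 7 genes were read in MM, some at a level that depended on the mouse. As RPKM, which divides by exon length as well as depth, the median over the 31 libraries was 31.7 for Acp5, 17.2 for Ibsp, 11.4 for Alpl, 2.86 for Dmp1, 1.68 for Sp7, 1.03 for Mepe and 0.123 for Phex. Mepe had 3 reads or fewer in 13 of the 31 libraries, Sp7 and Phex in 6 each and Ibsp in 4, whereas the lowest counts of Dmp1, Alpl and Acp5 were 22, 166 and 123 reads.

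The vehicle mice alone differed widely, for example in Ibsp and Mepe. Ibsp stood at 0.0818, 1.73 and 52.3 CPM (2, 37 and 1412 reads) in the CFA vehicle mice and at 41.3, 0.13 and 94.3 CPM (908, 2 and 2082 reads) in the Col vehicle mice. Mepe had 0, 0 and 489 reads in the former and 186, 0 and 619 reads in the latter. In both vehicle groups a mouse with no more than 2 reads of Ibsp and none of Mepe stood beside a mouse with at least 1412 and 489. Vehicle mouse 1 of the CFA experiment and vehicle mouse 2 of the Col experiment were lowest of their group, or tied for lowest, in all 7 genes, and in each of these groups mouse 3 was highest in 6 of 7.

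Of the 25 treated mice, 23 fell within the range of the 6 vehicle mice for Mepe, 21 for Acp5, 19 for Sp7, and 18 each for Ibsp, Dmp1 and Phex. Alpl was the member with the fewest mice inside that range, 13 of 25, with 9 mice below all vehicle mice and 3 above.

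**Figure D1:**
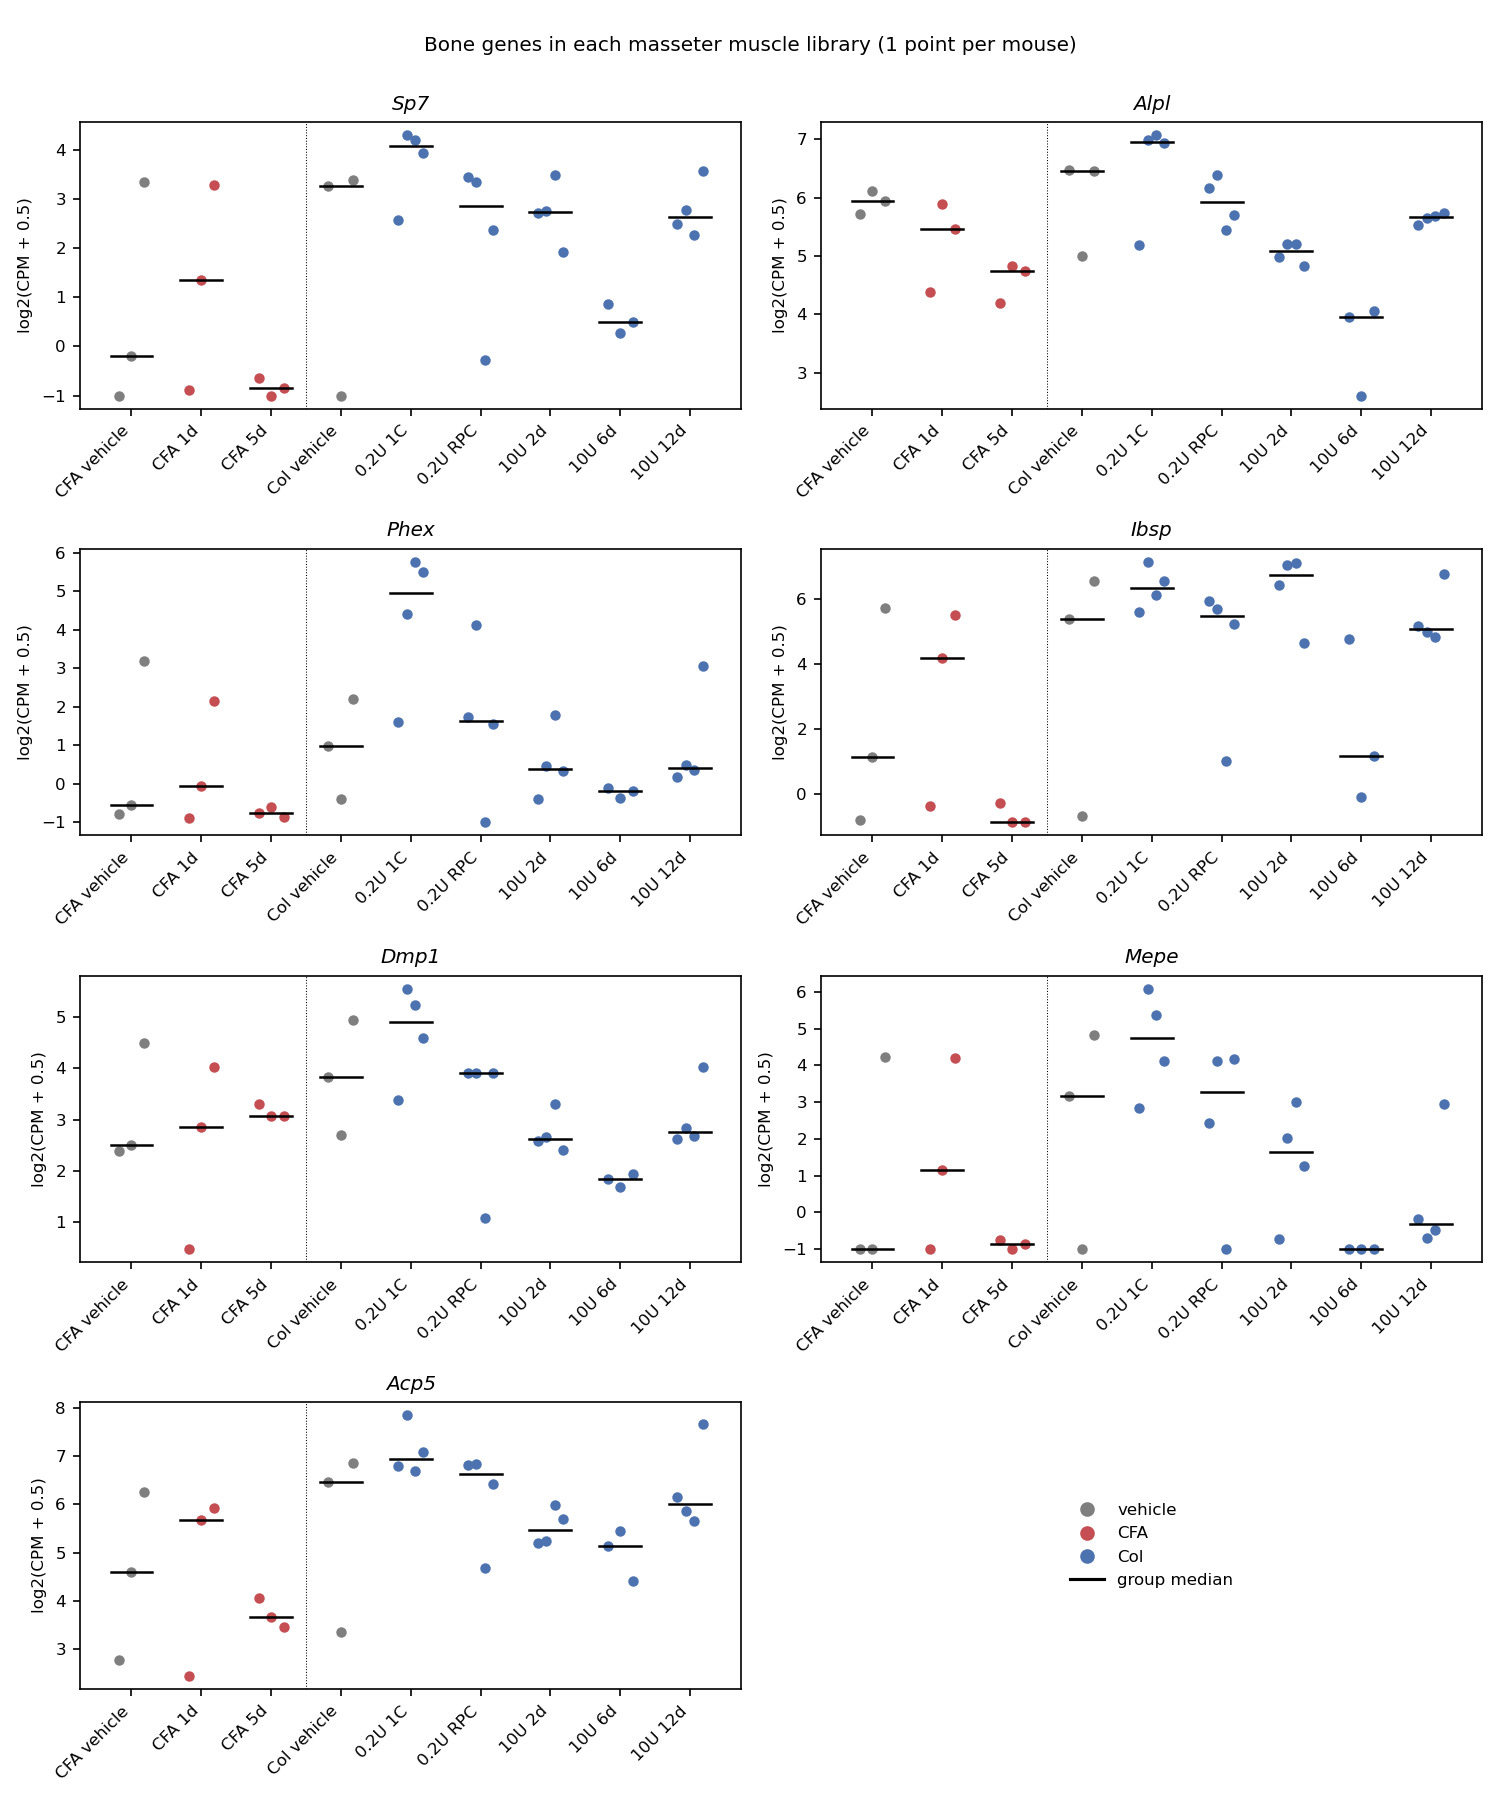
Level of each gene in every mouse as log2(CPM + 0.5), by group, with CFA in red, Col in blue and vehicle in grey, and a bar at the group median. Vehicle mice are split in all genes except Alpl in the CFA experiment, and the 3 mice at 10U 6d are low for Sp7, Dmp1, Mepe and Alpl.

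The order of the 9 groups by median CPM was similar in shape but rarely resolved. The 0.2U 1C group had the highest median in all genes except Ibsp, for which 10U 2d was highest (109 CPM, range 24.6 to 139) and 1C next (82.4 CPM, range 48.1 to 142). The lowest median belonged to CFA 5d for Ibsp, Sp7, Phex and Acp5, to 10U 6d for Dmp1 and Alpl, and to CFA vehicle and 10U 6d together, both at 0, for Mepe. Between neighbours in this order, the ranges overlapped in 8 of 8 pairs for Ibsp, Sp7, Phex and Acp5, in 7 of 8 for Dmp1 and Mepe, and in 6 of 8 for Alpl. CPM of the experiments were scaled together, but groups were tested only within an experiment.

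The share of the variance of log2(CPM + 0.5) that lay between the 9 groups was 74.2% for Alpl, 57.2% for Ibsp, 54.9% for Phex, 54.0% for Sp7, 51.1% for Acp5, 48.8% for Mepe and 44.7% for Dmp1. The median of 15526 expressed genes was 57.1%, and 26.7% is what the number of groups and mice alone gives. Alpl was at the 92.1st percentile of all genes, and the other members were at the 50.3rd or below. The share over 9 groups also holds the difference between the experiments. Within the CFA experiment it was 64.0% for Alpl, 35.4% for Ibsp, 26.5% for Sp7, 21.1% for Mepe, 17.7% for Phex, 10.6% for Acp5 and 9.05% for Dmp1, against 30.3% for the median gene. Within the Col experiment it was 75.5% for Alpl, 56.6% for Phex, 55.7% for Dmp1, 53.1% for Mepe, 43.2% for Sp7, 42.1% for Ibsp and 40.2% for Acp5, against 54.1% for the median gene. The spread between mice of a group, over all 9 groups, was an SD of 2.22 for Ibsp, 2.02 for Mepe, 1.51 for Phex, 1.44 for Sp7, 1.14 for Acp5, 1.01 for Dmp1 and 0.578 for Alpl on the log2 scale, against 0.329 for the median gene. These SDs lay at the 96.6th percentile or above for all genes except Alpl (84.5th).

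**Figure D2:**
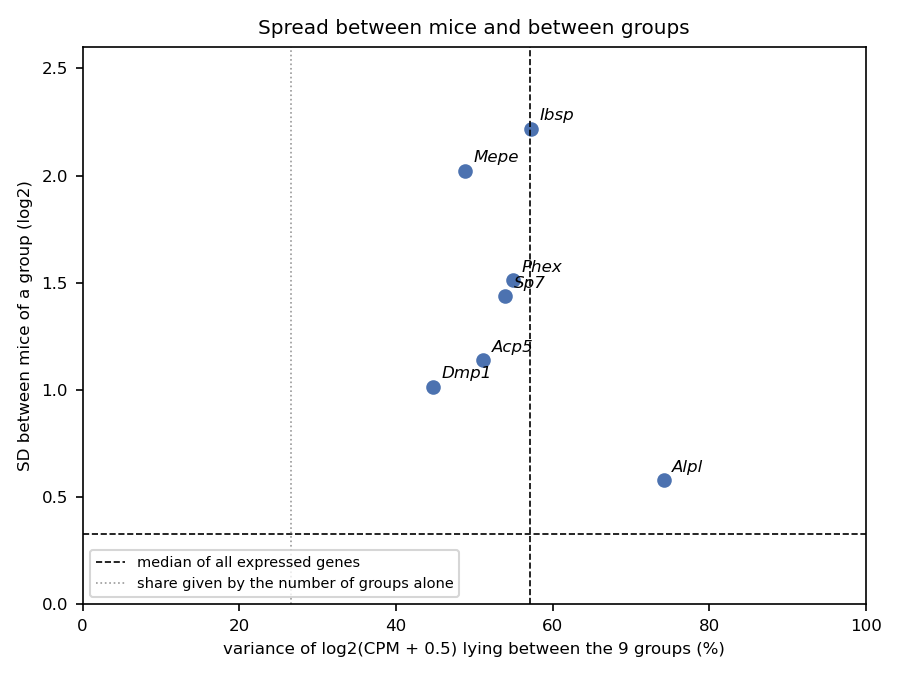
Share of variance between the 9 groups (x axis, percent) against the SD between mice of a group (y axis, log2), 1 point per gene, with dashed lines at the medians of expressed genes and a dotted line at the share given by the number of groups alone. All 7 genes lie above the median SD of 0.329, and Alpl alone lies far to the right at 74.2%.

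The genes varied together from mouse to mouse. Over the 31 libraries, Spearman's rho between pairs of the 7 genes ranged from 0.561 (Ibsp and Alpl) to 0.939 (Ibsp and Sp7), a description over libraries that share groups. After the group mean of log2 CPM was taken out, rho was 0.931 for Ibsp and Sp7, 0.922 for Dmp1 and Mepe, and 0.406 for Alpl and Acp5, the lowest pair. Alpl was the loosest member on this scale, with a median rho of 0.574 to the other genes against 0.791 or more for each other gene.

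Genes most like each member were picked from all expressed genes by the same rho, so the values are the highest found and carry no test. The nearest to Ibsp was Mmp13 (0.949), a collagenase of osteoblasts and hypertrophic cartilage, ahead of Mmp9 (0.930) and Col13a1 (0.917). Among the genes nearest to Sp7 were Mmp9 (0.947) and Col11a2 (0.933), and Acp5 was nearest to Col11a2 (0.953), Nhedc2 (0.950) and Col2a1 (0.945). Phex was nearest to Slc26a7 (0.949), Wif1 (0.935) and Col11a2 (0.930).

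Mepe had a different neighbourhood. Its 3 nearest genes were Fcnb (0.961) and Ms4a3 (0.950), which are made by granulocyte precursors of bone marrow, and Sost (0.949), which encodes sclerostin of osteocytes. Dmp1 was nearest to Ptprz1 (0.884), Bmp3 (0.863) and Ctsg (0.861), the last one a protease of granulocyte precursors. The nearest genes to Alpl, Syt9 (0.831), Lsamp (0.816) and Gnaz (0.799), belonged to none of the lists of bone, cartilage or marrow genes.

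Marker lists of other cells were summed per library and set beside the members. With the group means taken out, rho of Mepe was 0.87 to the osteoclast list (16 genes), 0.78 to the osteoblast list (21 genes), 0.77 to the tendon list (10 genes), 0.70 to the erythroid list, 0.64 to the cartilage list and 0.56 to the marrow granulocyte list, and -0.37 to the skeletal muscle list (10 genes). For Ibsp these values were 0.80, 0.85, 0.76, 0.72, 0.82, 0.43 and -0.30. For Alpl they were 0.43, 0.40, 0.42, 0.34, 0.38, 0.12 and 0.20. The osteocyte, macrophage, endothelial, mineralization, salivary gland and skin keratin lists gave 0.70, 0.60, -0.10, -0.33, -0.17 and -0.24 for Mepe. For Ibsp they gave 0.58, 0.42, 0.14, -0.13, -0.25 and -0.20, and for Alpl 0.24, 0.14, 0.52, 0.17, -0.34 and -0.24. The highest value of Alpl was thus that to the endothelial list. With group means kept, rho to the osteoblast list was 0.43 for Mepe, 0.62 for Ibsp and 0.19 for Alpl. For Mepe it was then 0.76 to the osteoclast, 0.42 to the tendon, 0.90 to the erythroid, 0.80 to the cartilage and 0.80 to the marrow granulocyte list. The osteoblast sum, which holds Col1a1, had its highest group median at 10U 6d (21587 CPM, against 6298 CPM in Col vehicle mice), where Mepe had 0 reads. The lists were chosen with results of these data known, and they share depth and libraries with the members. How much bone or marrow each dissected muscle carried was not tested.

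**Figure D3:**
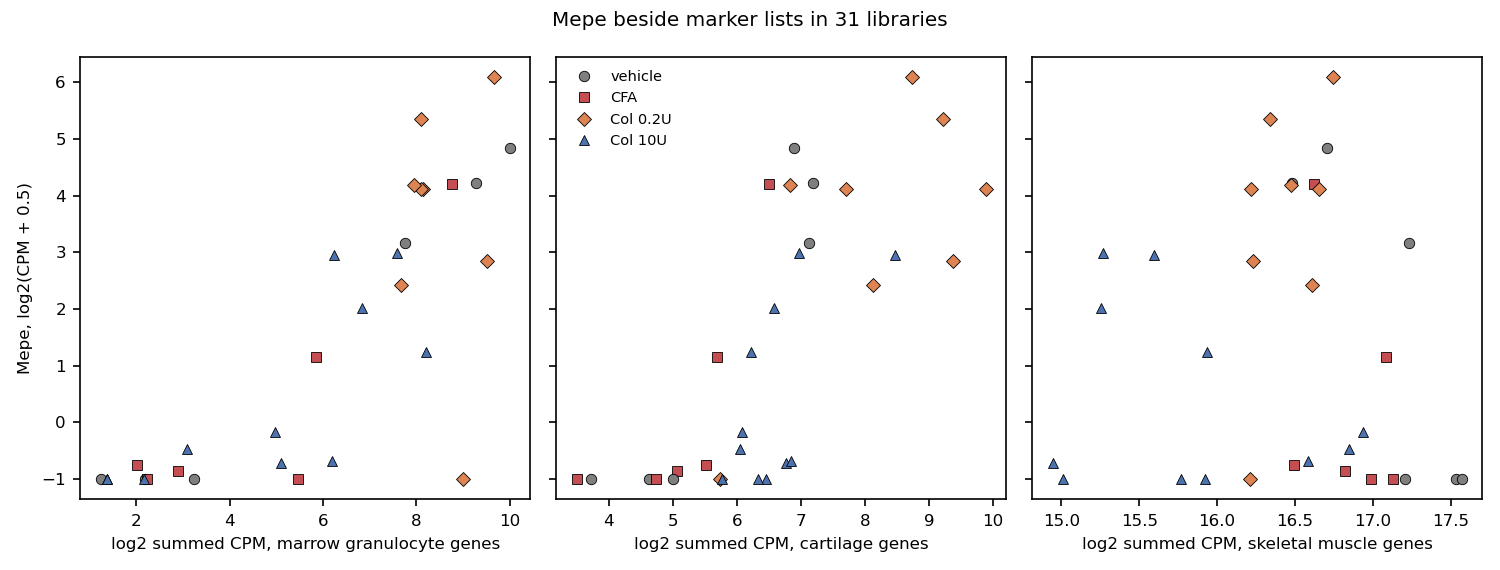
Mepe as log2(CPM + 0.5) (y axis) against the log2 of summed CPM of marrow granulocyte, cartilage and skeletal muscle genes (x axes), 1 point per mouse, with symbols for vehicle, CFA, 0.2U Col and 10U Col. Vehicle, CFA and 10U Col mice with few marrow granulocyte reads sit at the bottom. Mice with marrow reads and 0 Mepe reads include 0.2U RPC mouse 3 (511 CPM of marrow genes) and CFA 1d mouse 1 (44.5 CPM). In addition, 10U 12d mouse 2 has 72.9 CPM of marrow genes and 2 Mepe reads.

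In the CFA experiment, Alpl was the one gene called. It stood at 52.1, 68.7 and 60.7 CPM in vehicle mice, at 20.5, 58.5 and 43.8 CPM at CFA 1d and at 17.9, 27.8 and 26.4 CPM at CFA 5d. The 3 mice at CFA 5d were below all 3 vehicle mice, and those at CFA 1d overlapped them. At CFA 5d, 1 of the 3 members that passed the filter of 10 reads in 3 libraries was called lower by edgeR's quasi-likelihood test (adjusted p under 0.05), against 0.0428% of 14026 genes called lower, 1.06% called higher and 1.11% called in either direction. The log2 fold change of Alpl was -1.26 with an SE of 0.20 (adjusted p = 0.0447, edgeR). In the same comparison the summed salivary gland list was at 107, 118 and 15630 CPM in vehicle mice and at 135794 to 171026 CPM at CFA 5d, and its part in the Alpl values was not tested. Groups did not overlap, with the treated group lower, for this gene and for 7.96% of all genes. Leaving out any of the 3 mice at CFA 5d, or vehicle mouse 1 or 2, gave adjusted p-values of 0.122 to 0.163 in edgeR, and leaving out vehicle mouse 3 gave 0.00388. Over all genes, 0 were called lower in each of the former fits and 531 of 13819 in the latter, against 6 with all mice.

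The other members did not separate CFA 5d from its vehicle. Dmp1 was at 9.35, 7.91 and 7.94 CPM at CFA 5d and at 4.70, 5.20 and 22.2 CPM in vehicle mice, so that the 3 treated mice lay between vehicle mice. Its log2 fold change was -0.31 (SE 0.61, adjusted p = 0.876, edgeR), and without vehicle mouse 3 it was 0.87 (adjusted p = 0.0355), a change of direction that rests on 1 mouse. Acp5 was at 16.1, 12.1 and 10.4 CPM at CFA 5d against 6.34, 23.8 and 76.3 CPM in vehicle mice (log2 fold change -1.42, SE 0.78, adjusted p = 0.485, edgeR).

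Ibsp, Sp7, Phex and Mepe did not reach the filter in this comparison. At CFA 5d they had 1 to 7, 0 to 3, 1 to 3 and 0 to 2 reads per library. Vehicle mice 1 and 2 had 2 and 37, 0 and 8, 2 and 4, and 0 and 0 reads of them, whereas vehicle mouse 3 had 1412, 264, 230 and 489 reads. In that mouse Elane, which encodes neutrophil elastase and is transcribed in marrow precursors, had 458 reads, against 1 and 0 in the other 2 vehicle mice and 0 to 4 at CFA 5d. The summed marrow granulocyte list was at 2.37, 4.55 and 624 CPM from the lowest to the highest vehicle mouse and at 4.05 to 7.41 CPM at CFA 5d, and its part in the result was not tested.

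At CFA 1d, 0 of 7 members were called, as were 0.0% of 13944 genes by edgeR, with 0 members at an unadjusted p under 0.05 and 0 called by DESeq2, which called 0.331% of its genes higher and 0.072% lower. In 0 of 7 members did the groups not overlap, against 3.46% of genes higher and 2.76% lower without overlap. Ibsp was at 0.282, 17.7 and 45.9 CPM, Mepe at 0, 1.73 and 17.9 CPM and Acp5 at 4.96, 51.0 and 60.3 CPM. Mouse 1 of this group was lowest in all 7 genes and mouse 3 was highest in 6, as in the vehicle group. SEs of the log2 fold changes ran from 0.36 for Alpl to 2.20 for Mepe. The replicate number was also tried as a block, a pairing that no label gives. The SEs then ran from 0.26 for Alpl to 1.21 for Mepe, and edgeR called 0 of 7 members. The log2 fold change of Ibsp moved from 0.17 to 1.44 (SE 0.80, adjusted p = 0.667) and that of Mepe from 0.05 to 1.43 (SE 1.21, adjusted p = 0.738, edgeR). A test of any difference among the 3 groups of the CFA experiment called 0 of 7 members, against 2.81% of 14363 genes, with Ibsp and Alpl at an unadjusted p under 0.05 (0.0481 and 0.0155) and 1 member, Alpl, called by DESeq2 (adjusted p = 0.0239).

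In the 0.2U 1C group the members leaned high but none was called. All 7 log2 fold changes against Col vehicle were positive, with a median of 1.04 against 0.01 over all genes, and edgeR called 0 of 7 members and 0.0% of 14493 genes. Phex was at 2.53, 20.8, 53.8 and 44.4 CPM in the 1C mice and at 1.46, 0.261 and 4.08 CPM in vehicle mice, overlapping through 1 mouse of 1C. Its log2 fold change was 3.97 (SE 1.15), with an unadjusted p of 0.00904, the one member under 0.05, and an adjusted p of 0.277 in edgeR. DESeq2 called Phex, and 2.5% of the genes it tested, higher. The groups overlapped in all 7 members, against 4.35% of genes higher and 5.41% lower without overlap.

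Sp7 was at 5.49, 19.3, 18.1 and 14.8 CPM in the 1C mice and at 9.10, 0 and 9.96 CPM in vehicle mice. Dmp1 was at 9.89, 46.6, 37.1 and 23.6 CPM against 13.7, 6.00 and 30.3 CPM, and Mepe at 6.65, 67.6, 40.6 and 16.7 CPM against 8.47, 0 and 28.0 CPM. In 6 of 7 genes mouse 1 was lowest of the 1C mice, and vehicle mouse 2 was lowest of its group in all 7. Beside these values, the summed cartilage list was at 427 to 947 CPM in the 1C mice and 32.0 to 140 CPM in vehicle mice. Acan, a cartilage proteoglycan, was at 19.6 to 138 CPM in the former and 0.196 to 11.1 CPM in the latter (log2 fold change 3.44, SE 1.08, adjusted p = 0.294, edgeR). The part of cartilage in the Phex values was not tested.

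In the 0.2U RPC group 0 of 7 members were called by edgeR, as were 0.0% of 14269 genes, with 0 members at an unadjusted p under 0.05 and 0 called by DESeq2, which called 1.33% of its genes higher and 1.78% lower. The groups overlapped in all 7 members, against 4.22% of genes higher and 8.02% lower without overlap. The RPC mice held 1 mouse apart from the rest. Mouse 3 had 28 reads of Ibsp, 29 of Dmp1, 6 of Sp7, 0 of Phex and 0 of Mepe, whereas the other RPC mice had 701 to 1281, 196 to 313, 101 to 217, 52 to 227 and 101 to 378 reads. The same mouse had 780 reads of Alpl and 458 of Acp5, and it was lowest of its group in all 7 genes. Elane had 3 reads in it and 99 to 118 in the other RPC mice, and the erythroid list summed to 21.2 CPM against 464 to 537 CPM. The marrow granulocyte list, which also holds genes that blood neutrophils keep, summed to 511 CPM in this mouse, the highest of the group. The part of marrow in these values was not tested.

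In the Col experiment, the members called between pairs of groups were called in comparisons that include the 3 mice at 10U 6d. Alpl was at 87.9, 31.5 and 86.9 CPM in vehicle mice, at 31.03, 36.6, 36.4 and 28.1 CPM at 2d, at 15.1, 5.62 and 16.1 CPM at 6d and at 45.9, 49.4, 50.9 and 52.5 CPM at 12d. The 6d mice were below every mouse of the other Col groups, and the 12d mice were above every 2d mouse. Dmp1 was at 5.46, 5.84, 9.41 and 4.80 CPM at 2d, at 3.08, 2.71 and 3.34 CPM at 6d and at 5.69, 6.64, 5.87 and 15.8 CPM at 12d, with the 6d mice below all mice at 2d and 12d and below all vehicle mice.

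At 10U 6d against vehicle, edgeR called 2 of the 6 members tested, both lower, against 13.3% of 14281 genes called lower and 27.3% called in either direction. The log2 fold change was -2.47 for Dmp1 (SE 0.55, adjusted p = 0.0190) and -2.49 for Alpl (SE 0.51, adjusted p = 0.0155, edgeR). The 2 groups did not overlap for Dmp1 and Alpl, lower at 6d, as for 21.9% of all genes. Leaving out 6d mouse 1, 2 or 3 took Dmp1 over the threshold (adjusted p = 0.0737, 0.0847 and 0.0591), and leaving out 6d mouse 1 took Alpl over it (adjusted p = 0.0545, edgeR). Without vehicle mouse 2, edgeR called 5 members lower, against 1290 of 14129 genes in that fit. Sp7 at -3.29, Phex at -2.97 and Acp5 at -1.64 were added, on the log2 scale. This mouse was lowest of its group in all 7 members, so leaving it out widens their difference by itself.

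For the other 4 genes tested, vehicle mouse 2 lay below all 3 mice at 6d. Sp7 was at 1.33, 0.711 and 0.919 CPM at 6d against 9.10, 0 and 9.96 CPM (log2 fold change -2.70, SE 1.21, adjusted p = 0.128, edgeR). Phex was at 0.428, 0.271 and 0.376 CPM against 1.46, 0.261 and 4.08 CPM (-2.46, SE 0.86, adjusted p = 0.0673, edgeR), and DESeq2 called it lower, with 18.5% of its genes. Acp5 was at 34.9, 43.2 and 20.8 CPM against 87.9, 9.79 and 115 CPM (-1.12, SE 0.73, adjusted p = 0.272, edgeR). Ibsp kept 627 reads in 1 mouse at 6d and 13 and 42 in the others, 26.8, 0.440 and 1.75 CPM, with a log2 fold change of -2.24 (SE 1.69, adjusted p = 0.339, edgeR).

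Mepe was not read in any of the 3 mice at 6d. With 0 reads in each, and a floor of 3 reads per library (0.118 CPM on average), the group mean of 12.2 CPM in vehicle mice was at least 103-fold higher, but vehicle mouse 2 also had 0 reads. Mepe did not reach the filter against vehicle or against 12d. Against the mean of 3.25 CPM at 2d (2, 65, 168 and 50 reads) the 6d group was at least 27.4-fold lower, and the mean of 2.00 CPM at 12d (8, 2, 4 and 163 reads) was at least 16.9-fold higher, a bound set mainly by 1 mouse at 12d.

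The fall between 2d and 6d was tested directly. At 6d against 2d, edgeR called 2 of 7 members lower, Sp7 (log2 fold change -2.75, SE 0.45, adjusted p = 0.0151) and Alpl (-1.44, SE 0.35, adjusted p = 0.0444), against 4.05% of 14513 genes called lower, 4.68% called higher and 8.73% in either direction. Sp7 had been at 6.09, 6.27, 10.7 and 3.30 CPM at 2d, above all 3 mice at 6d. Groups did not overlap, lower at 6d, for Dmp1, Sp7, Alpl and Mepe, and for 10.7% of all genes. Dmp1 (-1.08, SE 0.28) and Mepe had adjusted p-values of 0.0548 and 0.0556 in edgeR. DESeq2 called Dmp1, Sp7, Alpl and Mepe lower, with 9.85% of its genes. Mepe, with 0 reads in each 6d mouse, reached the filter only through 2d mice. Its direction was thus set by the filter, and its p-value and call carry that limit.

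These calls were lost when single mice were left out. Without 6d mouse 1, 2 or 3, adjusted p-values for Sp7 were 0.0587, 0.0956 and 0.0630 in edgeR. Over all genes, 34, 24 and 115 were called lower in these fits, against 588 with all mice. Alpl stayed past the threshold only when 2d mouse 4 was left out (adjusted p = 0.0173) and ran up to 0.129 in the other fits, that value without 6d mouse 1. Ibsp, at 86.3, 132, 139 and 24.6 CPM at 2d, had a log2 fold change of -3.32 (SE 1.28, adjusted p = 0.147, edgeR), and passed without 2d mouse 4 (adjusted p = 0.0469) or 6d mouse 1 (0.0423). Acp5, at 36.2, 37.4, 62.9 and 51.1 CPM at 2d, changed least (-0.53, SE 0.29, adjusted p = 0.292, edgeR).

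Between 6d and 12d, Sp7, Alpl and Dmp1 rose. In all 7 genes each of the 4 mice at 12d was above each of the 3 mice at 6d, as for 17.2% of all genes. EdgeR's test called 3 of the 6 members tested higher, against 13.4% of 14344 genes called higher and 26.4% in either direction. These were Sp7 (log2 fold change 2.80, SE 0.42, adjusted p = 0.00997), Alpl (2.04, SE 0.34, adjusted p = 0.0122) and Dmp1 (1.501, SE 0.40, adjusted p = 0.0335). The median log2 fold change of the 6 tested members was 2.23, against 0.00 over all genes.

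Alpl was the steadiest of these. It passed the threshold with each of the 7 mice left out in turn (adjusted p = 0.00235 to 0.0407, edgeR), and Sp7 in all fits except that without 6d mouse 2 (adjusted p = 0.0577). Dmp1 passed only without 12d mouse 4 (adjusted p = 0.00327). In the remaining 6 fits, each without 12d mouse 1, 2 or 3 or without 6d mouse 1, 2 or 3, Dmp1 had an adjusted p between 0.0535 and 0.138. Phex, at 0.627, 0.906, 0.775 and 7.79 CPM at 12d, and Acp5, at 70.3, 57.8, 49.5 and 202 CPM, had log2 fold changes of 2.84 (SE 1.05, adjusted p = 0.0765) and 1.54 (SE 0.54, adjusted p = 0.0654, edgeR). Both passed without 12d mouse 4, at 1.09 and 0.84 on the log2 scale. Without 6d mouse 2, 1 member, Alpl, was called higher, against 102 of 14130 genes in that fit.

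The 12d mice held 1 mouse apart. Mouse 4 was highest of the group in all 7 genes, with 2441 reads of Ibsp, 355 of Dmp1, 175 of Phex, 163 of Mepe and 4538 of Acp5, against 508 to 736, 106 to 118, 13 to 15, 2 to 8 and 895 to 1458 reads in the other 3. Alpl was at 52.5 CPM in this mouse, close to 45.9 to 50.9 CPM in the other 12d mice. Against vehicle, edgeR called 0 of 7 members at 12d, whereas it called 0.762% of 14176 genes higher, 0.466% lower and 1.23% in either direction, with 0 members at an unadjusted p under 0.05 and 0 called by DESeq2 (3.68% of its genes higher, 2.71% lower). The groups overlapped in all 7 members, against 8.55% of genes higher and 8.51% lower without overlap.

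At 10U 2d against vehicle, edgeR called 0 of 7 members, with 2.22% of 14373 genes called in either direction, 1.14% higher and 1.08% lower. The groups overlapped in all 7 members, against 10.7% of genes higher and 13.2% lower without overlap. Dmp1 (log2 fold change -1.39, SE 0.51, unadjusted p = 0.0266) and Alpl (-1.04, SE 0.34, unadjusted p = 0.0144) had adjusted p-values of 0.110 and 0.0856 in edgeR. DESeq2 called both lower, with 11.4% of its genes called lower. Without vehicle mouse 2, edgeR called Alpl lower (adjusted p = 0.0494), with 5 of 14269 genes called lower in that fit. A test of any difference among the 6 groups of the Col experiment called 4 of 7 members, Alpl (adjusted p = 0.000521), Phex (0.00404), Dmp1 (0.00480) and Mepe (0.0194, edgeR), against 58.5% of 15385 genes, so the share of members was near that of all genes.

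**Figure D4:**
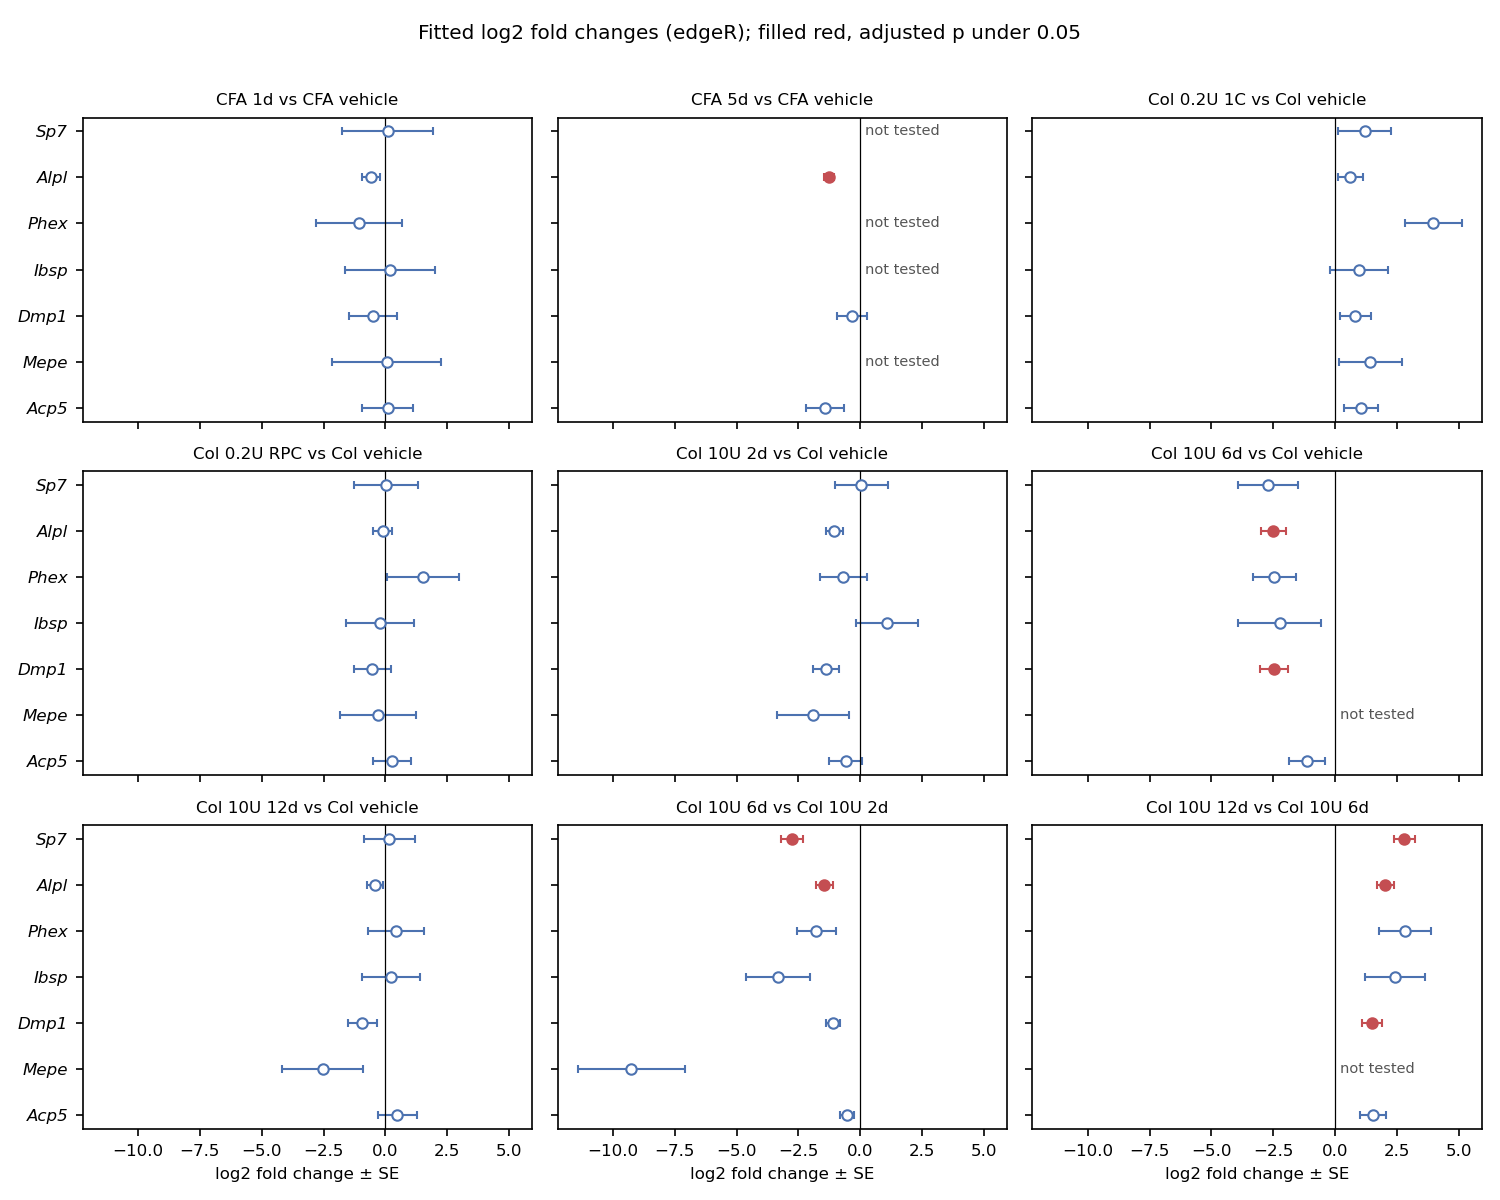
Log2 fold change of each gene with its SE (x axis) in the 9 comparisons, with filled red points for an adjusted p under 0.05 in edgeR and genes under the filter written as not tested. Red points stand at CFA 5d for Alpl, at 10U 6d against vehicle for Dmp1 and Alpl, at 6d against 2d for Sp7 and Alpl, and at 12d against 6d for Sp7, Dmp1 and Alpl.

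Of 21 other osteoblast genes tested at 10U 6d against vehicle, 5 were called lower and 2 higher, beside 13.3% of all genes lower and 27.3% in either direction, so the list as a whole is not set apart by its count. Bglap (osteocalcin, a late osteoblast product) had 1, 1 and 2 reads at 6d against 437, 25 and 82 in vehicle mice (log2 fold change -7.17, SE 1.18, adjusted p = 0.00813, edgeR). Bglap reached the filter only through the vehicle mice, so its direction was largely set by the filter, and the count called lower includes it. Bglap2, a near-identical copy whose reads may be split with it, fell by 5.50 (SE 0.81, adjusted p = 0.00564) and Phospho1, a phosphatase of matrix vesicles that muscle also makes, fell by 3.75 (SE 0.32, adjusted p = 0.00146, edgeR) on the log2 scale. Phospho1 was also lower than in vehicle mice at 2d (-3.16, adjusted p = 0.00432) and at 12d (-3.40, adjusted p = 0.00314, edgeR), times at which edgeR called 0 members. Reads counted as ambiguous between genes made up 0.331% to 0.399% of the 10U libraries and 0.0899% to 0.115% of the Col vehicle libraries. The part of this difference in the 10U comparisons against vehicle was not tested. At 6d, Postn, a matrix protein of periosteum and of fibroblasts, rose by 4.09 (SE 1.12, adjusted p = 0.0340, edgeR). Spp1, the neighbour of Mepe, which macrophages also make, rose by 2.12 (SE 0.67, adjusted p = 0.0499, edgeR) and stood at 245 to 590 CPM at 6d against 20.6 to 138 CPM in vehicle mice.

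At 12d against 6d, 5 of 21 osteoblast genes were called higher and 0 lower by edgeR, beside 13.4% of all genes higher and 26.4% in either direction, among them Bglap (8.41, SE 1.21, adjusted p = 0.00915), Bglap2 (5.78, SE 0.99, adjusted p = 0.0129), Bmp3 (2.47, SE 0.64, adjusted p = 0.0303) and Omd (2.31, SE 0.45, adjusted p = 0.0165) on the log2 scale. Bglap, with 1 to 2 reads at 6d and 148 to 1162 at 12d, reached the filter only through the 12d mice. Its direction in this comparison was largely set by the filter too, and the count called higher includes it. Sost, made by osteocytes, had 4, 1 and 0 reads at 6d and 1, 2, 5 and 95 reads at 12d, the last in mouse 4. Of 9 tested mineralization genes, 3 were higher and 4 lower at 6d against vehicle, beside 27.3% of all genes called in either direction. Enpp1, an enzyme that makes the mineral inhibitor pyrophosphate, was up by 2.01 (SE 0.29, adjusted p = 0.00547, edgeR). Ank, which exports pyrophosphate, was down (-1.26, SE 0.24, adjusted p = 0.0128, edgeR). Runx2, the master transcription factor of osteoblasts, was at 12.8 to 19.7 CPM at 6d and 6.52 to 20.3 CPM in vehicle mice.

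Of 14 osteoclast genes tested at 6d against vehicle, 3 were called higher and 2 lower, a count that is also read against 27.3% of all genes called in either direction, with Car2, the carbonic anhydrase that acidifies the resorption pit, down (-3.02, SE 0.48, adjusted p = 0.00737), Calcr, the calcitonin receptor, down (-1.78, SE 0.40, adjusted p = 0.0188), and Csf1r and Tnfrsf11a, receptors that macrophages share, up by 1.61 and 1.34 (adjusted p = 0.0234 and 0.0318, edgeR). Ctsk, the collagen-cleaving protease of osteoclasts, was at 48.6 to 90.5 CPM at 6d and 8.22 to 116 CPM in vehicle mice. All 13 macrophage genes were called higher at 6d, with Cd68 up by 3.38 (SE 0.67, adjusted p = 0.0138, edgeR), and their sum was at 1743 to 3532 CPM against 167 to 546 CPM in vehicle mice. The part of macrophages in the Acp5 level at 6d was not tested.

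Marrow genes were low in the same 3 mice. At 10U 6d against vehicle, 6 of 10 marrow granulocyte genes and 5 of 11 erythroid genes reached the filter. A gene with few reads at 6d passes it only where all 3 vehicle mice have 10 reads. The direction was thus largely set by the filter. Of the genes tested, 6 of 6 and 4 of 5 were called lower at 6d by edgeR, counts that cannot be compared with the 13.3% of all genes. Ngp fell by 8.36 (SE 2.12, adjusted p = 0.0272) and Slc4a1, the red cell anion exchanger, fell by 7.73 (SE 1.74, adjusted p = 0.0195, edgeR) on the log2 scale. The sums of the marrow granulocyte list were 2.61 to 4.51 CPM at 6d, 9.40 to 1026 CPM in vehicle mice, 34.5 to 295 CPM at 2d and 8.52 to 75.8 CPM at 12d. Elane had 0, 0 and 2 reads at 6d. At 12d against 6d, 2 of 7 granulocyte genes and 6 of 7 erythroid genes were called higher, beside 13.4% of all genes. Here too, genes near 0 at 6d reach the filter only through the 12d mice.

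Genes of tendon, the tissue that joins MM to bone, were divided. Of 10 tested at 6d against vehicle, 3 were higher and 4 lower, with the same background of 27.3% called in either direction. Scx, the tendon transcription factor, rose by 2.10 (SE 0.30, adjusted p = 0.00530, edgeR), and Tnc rose by 4.68 (SE 0.76, adjusted p = 0.00774, edgeR), whereas Chad (-3.24), Fmod (-2.79) and Comp (-2.49) were lower on the log2 scale (adjusted p = 0.0120, 0.0426 and 0.0482, edgeR). Of 10 cartilage genes, 1 was higher and 3 were lower. Among the skeletal muscle genes, 4 of 10 were called lower at 6d, against 13.3% of all genes, with Ckm at -2.04 (SE 0.55, adjusted p = 0.0320, edgeR). The summed skeletal muscle list was at 32960 to 62165 CPM at 6d and 106701 to 153731 CPM in vehicle mice and 31515 to 62757 CPM at 2d. Its part in the member levels was not tested.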

How the data were processed

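Per the labels, poly(A) RNA was made into stranded libraries and read from one end over 50 bases. The authors aligned the reads to build mm9 with TopHat2 and counted them with HTSeq, and the deposited values are raw counts per gene symbol, 1 table for each mouse. The 5 closing lines of each table, for reads assigned to no gene, were left out (reads with several alignments make up 34.6% to 47.9% of a library). The annotation and strand setting of the counting are not given in the sources used here. Reads counted as ambiguous between genes made up 0.331% to 0.399% of each 10U library and 0.0757% to 0.138% of every other library. The reason for this difference was not tested.

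Tests used edgeR 4.0.16 in R 4.3.3 (TMM, quasi-likelihood test) within each pair of groups, on genes that reached 10 counts in 3 or more of its libraries, with Benjamini-Hochberg adjustment over all genes tested and a threshold of 0.05. Each SE is the size of the log2 fold change over the root of F. The test was tried on simulated data. Samples were grouped by title. RPKM used exon lengths of GENCODE vM1 in build mm9. The members and lists were chosen with earlier results of these data known. Named genes are the members, fixed marker genes, up to 4 genes of a list with the largest called change, and the 3 genes most like each member, of which 1 is not reported here; Spp1 is named as a neighbour. Alternatives were DESeq2 1.42.0, its size factors, no filter, the study's thresholds, a shared fit, pooled vehicle groups, a replicate block and each mouse left out.

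Replicate numbers in the labels mark different mice. Same-numbered mice deviated together, with every pair over 0.1, only in CFA 1d against vehicle (r = 0.165 to 0.592 over 3 pairs). No label pairs the mice, and these correlations come from the same data, in 1 of 9 comparisons. The block by number is therefore an alternative fit and not a known pairing.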

Additional observations from a re-analysis of the deposited data

Results flagged for a closer look

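Groups of 4 mice were searched for a mouse whose gap to the next one passed Dixon's 95% limit as a share of the group's range. This limit assumes normally spread values, whereas CPM were used without logs, so no rate by chance is given. Such a mouse was picked out in 8 of 28 combinations of member and group. At 10U 12d this was mouse 4 for Ibsp (108.7 CPM), Dmp1 (15.8 CPM), Phex (7.79 CPM), Mepe (7.26 CPM) and Acp5 (202 CPM), each time the highest. In the 0.2U RPC group it was mouse 3, the lowest, for Dmp1 (1.60 CPM) and mouse 2, the highest, for Phex (16.9 CPM). In the 0.2U 1C group it was mouse 1, the lowest, for Alpl (35.8 CPM). Groups of 3 mice were not examined in this way. The genes vary together across mice, so these are not separate events.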

How the results depend on the processing

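The members' calls depended on single mice, as did the calls over all genes. Over all genes, the number called lower with 1 mouse left out was 0 to 531 at CFA 5d and 2 to 2605 at 10U 2d. It was 338 to 2817 at 10U 6d and 24 to 2106 at 6d against 2d. The number called higher was 0 to 1631 at CFA 5d and 102 to 3554 at 12d against 6d. These fits tested 13778 to 14382 genes each. In the same fits, the number of members called lower was 0 to 1 at CFA 5d, 0 to 1 at 10U 2d, 0 to 5 at 10U 6d and 0 to 4 at 6d against 2d. The number of members called higher was 0 to 1 at CFA 5d and 1 to 5 at 12d against 6d. With 1 mouse left out at a time, the number of members differing was 0 to 1 in the CFA and 4 to 6 in the Col experiment. Dmp1 at CFA 5d ranged from -0.68 to 0.87 on the log2 scale, turning from -0.31 to 0.87 without CFA vehicle mouse 3. The number of members called lower at CFA 5d was 0 with DESeq2's size factors, with 1 fit of all 31 libraries and with both vehicle groups pooled. Over all genes these fits called 3 of 14026, 5 of 15526 and 0 of 14447 lower. DESeq2 called 1 member higher in 0.2U 1C, 2 lower at 10U 2d, 4 lower at 6d against 2d and 1 different in the CFA experiment. In the first 3 of these it called 2.5% of its genes higher, 11.4% lower and 9.85% lower. The fit of all 31 libraries called 1 lower at 10U 2d, 1 lower at 6d against 2d and 1 higher at 12d against 6d, and pooled vehicle groups gave 1 lower at 10U 2d. Over all genes, these counts were 2549, 844 and 1533 of 15526 in the fit of all libraries. Pooled vehicle groups gave 2447 of 14663. The cause was not tested. Without the filter and with the study's thresholds, every count of members called stayed within 1.5 times the reported one. A count of 3 or fewer, as for Mepe in 13 libraries, does not tell a low level from none.

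With the replicate number as a block, 4 members were called lower at 6d against 2d and 1, Alpl, differed in the CFA experiment (adjusted p = 0.0493, edgeR). Under the block, Dmp1 (-1.15, adjusted p = 0.0402) and Mepe (adjusted p = 0.0146) passed at 6d against 2d and Acp5 passed at 12d against 6d (adjusted p = 0.00978, edgeR), and no other call of a member changed. Mepe again reached the filter only through 2d mice. Over all genes, the block called 1166 of 14513 lower at 6d against 2d, against 588 without it. At 12d against 6d it called 3509 of 14344 higher, against 1917 without it. Outside CFA 1d against vehicle, the lowest correlation between same-numbered mice was -0.391 to -0.226, and no label pairs mice in any comparison.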
